A study of Mus musculus with 6 samples.

Results

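Secreted Wnt antagonists are extracellular proteins that limit Wnt signalling, and 7 of them were followed here in fetal liver mesenchyme: Sfrp1, Sfrp2, Frzb, Dkk2, Dkk3, Wif1 and Notum. They were taken by gene symbol from a deposited table of 54532 genes, and each of the 7 matched 1 identifier. The libraries came from CD-1 mouse embryos of genotype Sm22-Cre/ROSA26RYFP, at embryonic day 18 (E18, 3 libraries) and embryonic day 16 (E16, 3 libraries), each day lettered A, B and C. In these animals Cre under the Sm22 promoter, active in smooth muscle and related mesenchyme, switches on a permanent eYFP reporter from the ROSA26 locus, so eYFP marks cells that express Sm22 or descend from such cells. Livers of both days were dissociated with enzymes and the eYFP-positive cells were sorted, so the transgenes and the sort are shared by both groups. Nothing in the labels tells if libraries of 1 day had different litters, pools or preparations as their source, so p-values measure only the spread between libraries, which may be technical in part. Wherever 3 values of a day are given, they stand in the order A, B, C.

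Wnt ligands are lipid-modified secreted proteins that bind frizzled receptors together with the co-receptors Lrp5 and Lrp6 and stabilise beta-catenin in the receiving cell. Secreted frizzled-related proteins (Sfrp1, Sfrp2 and Frzb, also known as Sfrp3) carry a cysteine-rich domain like that of the receptors and bind the ligands. Dickkopf proteins such as Dkk2 act on the co-receptors, but Dkk3 is a divergent member of the family for which this is not assumed here. Wif1 binds Wnt ligands through a domain of its own, and Notum is an esterase that removes the lipid from the ligand. In the adult liver, Wnt signals from central vein endothelium set the pericentral programme of hepatocytes.

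The promoters of Sfrp2 and Dkk2 are shown as examples of the Wnt-binding and the co-receptor-binding families, 1 gene whose values overlapped between the days and 1 whose values did not. The 250 bases before each gene's start come from RefSeq (build GRCm38.p6, plus strand for both), chr3:83766071-83766320 for Sfrp2 and chr3:132085042-132085291 for Dkk2, read 5′ to 3′. Capitals mark matches, on either strand, to the GC box GGGCGG or the TATA box TATAAA.
Sfrp2: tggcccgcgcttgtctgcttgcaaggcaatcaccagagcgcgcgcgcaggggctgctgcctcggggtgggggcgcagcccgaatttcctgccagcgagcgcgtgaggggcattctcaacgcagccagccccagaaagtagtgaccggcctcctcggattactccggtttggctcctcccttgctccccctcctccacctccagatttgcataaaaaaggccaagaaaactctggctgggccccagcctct
Dkk2: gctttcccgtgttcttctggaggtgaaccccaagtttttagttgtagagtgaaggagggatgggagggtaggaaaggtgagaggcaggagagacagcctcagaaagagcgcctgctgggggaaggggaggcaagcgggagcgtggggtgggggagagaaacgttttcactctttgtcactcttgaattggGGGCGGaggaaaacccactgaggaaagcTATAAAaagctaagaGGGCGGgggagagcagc

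The Dkk2 window held 2 GC boxes and 1 TATA box, the TATA box starting 32 bases before the gene's start, and 7 CpG dinucleotides. The Sfrp2 window held neither motif and had 16 CpG dinucleotides with a GC content of 63.6%, against a median GC content of 52.4% over all promoters. Of 32841 mouse promoter windows of the same length, 32.7% held the GC box and 12.4% the TATA box. The core of the TCF/LEF motif (CTTTGA, either strand), bound by the transcription factors of the Wnt pathway, was in 13.8% of all windows and in neither of these. A match is a string of letters and no evidence of binding. RefSeq windows were matched for 4 of the 7 members, also for Frzb and Wif1, whose windows reach into transcripts annotated by GENCODE and are not printed.

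Values are transcript abundances (TPM) that divide reads by gene length and share a fixed library total, so levels can be compared between genes. Depth, recovered from the steps in the TPM values, was 14586254 to 18280339 reads at E18 and 21128610 to 22624476 at E16. The libraries carried mesenchymal markers together with those of other cells. The summed TPM of 12 mesenchymal core markers (collagens, decorin, vimentin and others) was 3095, 6638 and 2570 in the E18 libraries, against 461, 584 and 880 in the E16 libraries. For 10 hepatocyte markers the sum was 378 to 980 at E18 and 2088 to 8778 at E16, highest in E16 replicate B. For 10 erythroid markers it was 10147 to 18063 at E18 and 4743 to 6606 at E16. Tagln, the gene of Sm22, was at 3.19, 2.86 and 3.37 TPM in the E18 libraries and 0.606 to 1.40 TPM at E16. E18 replicate B thus stood apart as the library with the highest core marker sum, although its Tagln was the lowest of its day. In bulk RNA, fewer cells of a type and less RNA per cell cannot be told apart.

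E18 was set against E16 to ask how the antagonists of the sorted cells differ between the stages. Sfrp1 and Dkk3 rose, Sfrp2 did not pass the test, and Frzb, Dkk2, Wif1 and Notum were too low to enter it. Genes at 1 TPM or more in at least 3 of 6 libraries were tested with limma on log2(TPM + 1), and a gene was called at a Benjamini-Hochberg adjusted p under 0.05 over all 17824 genes tested. Of the 7 members 3 entered the test and 2 were called, both higher at E18. Over all genes tested, 3.47% were called in either direction and 3.08% as higher (549 higher and 69 lower). Of the 399 genes called with quantile normalization, 314 were higher. Of 1069 called among 16867 genes when neither the scaling nor the test used mitochondrial genes, small RNA genes or Gm26917, 818 were higher.

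Sfrp1 (ENSMUSG00000031548, chromosome 8, 23411502 to 23449632, plus strand, mm10 as for all positions here, 3 merged exons) was the most abundant member on both days by mean. It stood at 57.6, 149 and 49.6 TPM in the E18 libraries, against 4.45, 4.51 and 15.6 TPM in the E16 libraries. Every E18 library lay above every E16 library, with E18 replicate B and E16 replicate C the highest of their days. The means were 85.4 ± 55.2 TPM at E18 and 8.19 ± 6.43 TPM at E16 (SD, n = 3 each). The log2 fold change was 3.27 with an SE of 0.56 (adjusted p from limma = 0.0358). Among the genes tested, its mean lay at the 92.5th percentile of levels at E18 and at the 47.7th at E16. These values rest on 5288 reads over the E18 libraries and 706 over the E16 libraries.

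Dkk3 (ENSMUSG00000030772, chromosome 7, 112116017 to 112159057, minus strand, 8 merged exons) had the smaller spread of the called members. It stood at 21.4, 36.6 and 21.2 TPM in the E18 libraries, against 2.53, 3.54 and 4.51 TPM in the E16 libraries. The days did not overlap, and E18 replicates A and C were nearly equal. The means were 26.4 ± 8.85 TPM at E18 and 3.52 ± 0.988 TPM at E16 (SD, n = 3 each), from 1272 reads over the E18 libraries and 235 over the E16 libraries. This was a difference of 2.58 on the log2 scale with an SE of 0.30 (adjusted p from limma = 0.0273).

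Both calls depended on most single libraries. Without E18 replicate A, E18 replicate B, E16 replicate A, E16 replicate B or E16 replicate C, neither gene was called. Across these fits the limma adjusted p of Sfrp1 was 0.105, 0.0942, 0.1105, 0.0923 and 0.0584, in that order, and that of Dkk3 was 0.0925, 0.0651, 0.0893, 0.0598 and 0.0584. The loss was not particular to these genes: over the whole table limma called 55 genes without E16 replicate B and 0 in the other fits of this list. Without E18 replicate C both were called, among 664 genes of the whole table. The log2 fold change over all 6 of these fits was 2.78 to 3.80 for Sfrp1 and 2.32 to 2.73 for Dkk3. With both B libraries left out, which was tried after the values of E18 replicate B were seen, the log2 fold change was 2.52 for Sfrp1 and 2.34 for Dkk3 (adjusted p from limma = 0.159 and 0.117). That fit also called 0 genes over the whole table.

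Sfrp2 (ENSMUSG00000027996, chromosome 3, 83766321 to 83774316, plus strand), whose promoter is printed above, is a close relative of Sfrp1. It stood at 6.42, 14.5 and 5.38 TPM in the E18 libraries, against 2.92, 5.59 and 5.02 TPM in the E16 libraries. E18 replicate C lay below E16 replicate B, so the days overlapped. The means were 8.78 ± 5.01 TPM at E18 and 4.51 ± 1.41 TPM at E16 (SD, n = 3 each). Their difference of 0.75 on the log2 scale, with an SE of 0.41, did not pass (adjusted p from limma = 0.369). With 1 library left out it was 0.35 to 0.996, lowest without E18 replicate B, and it passed in none of these 6 fits (limma adjusted p 0.228 to 0.727). Exons of the opposite-strand gene Gm26771, at 0 to 0.628 TPM at E18 and 0 to 1.39 TPM at E16, cover 16.1% of its exon length. Per the labels' protocols the kit was stranded, but the strand setting of the counting is not given in the sources used here, so reads of this stretch could belong to either gene.

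**Figure D1:**
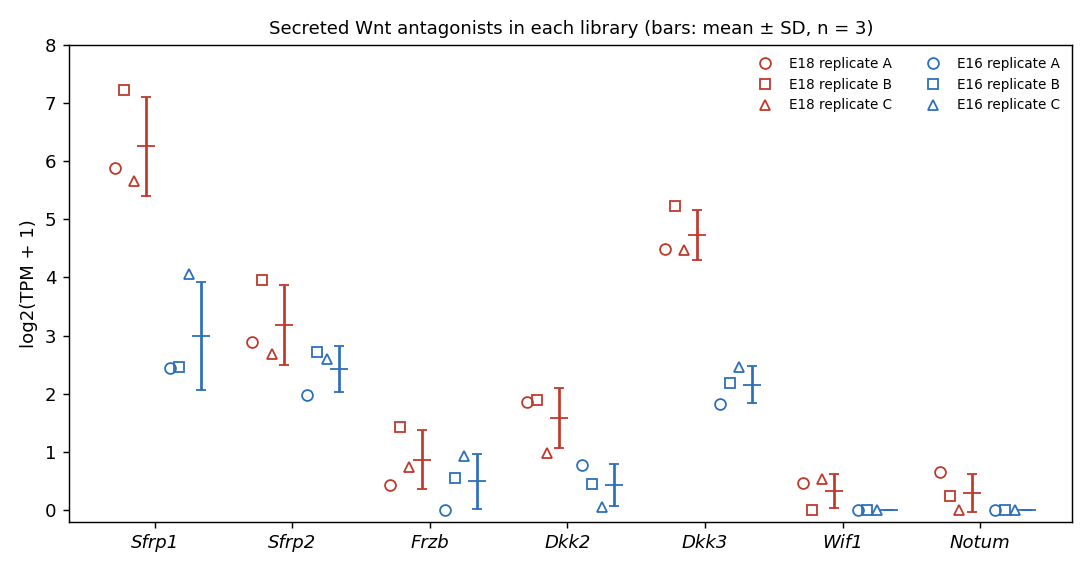
Level of each secreted Wnt antagonist as log2(TPM + 1) in every library, E18 in red and E16 in blue, with symbols for replicates A, B and C and bars for mean ± SD (n = 3). Sfrp1, Dkk3 and Dkk2 show no overlap between the days, while the values of Sfrp2 and Frzb overlap and Wif1 and Notum are at 0 in all E16 libraries.

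Of the 4 members under the filter, Dkk2 (ENSMUSG00000028031, chromosome 3, 132085292 to 132180304, plus strand), a ligand of the co-receptor Lrp6, was the highest at E18. Its level was 2.63, 2.72 and 0.977 TPM in the E18 libraries, against 0.711, 0.366 and 0.0417 TPM in the E16 libraries. The days did not overlap, but the values rest on 43, 46 and 20 reads at E18 and 18, 9 and 1 at E16. Counting Dkk2, 3 of the 7 members had every E18 value above every E16 value, as did 18.4% of the genes tested. That share covers only genes that passed the filter, which Dkk2 did not. Among the tested members the pattern held for Sfrp1 and Dkk3 but not for Sfrp2. Limma's voom on recovered reads, an alternative chosen after seeing the data that called 7.32% of its genes as higher, gave Dkk2 a log2 difference of 2.79 with an SE of 1.04 (adjusted p = 0.130) and did not call it. With no filter on low values, limma gave Dkk2 a difference of 1.15 on the log2(TPM + 1) scale with an SE of 0.39 (adjusted p = 0.223). The voom values carry no pseudocount of 1 TPM, so the scales of these fits differ most for low genes. The same fit called Sfrp1 and Dkk3 (voom adjusted p = 0.00675 and 0.00331).

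Frzb (ENSMUSG00000027004, chromosome 2, 80411970 to 80447625, minus strand) was low on both days. It was at 0.350, 1.69 and 0.671 TPM in the E18 libraries, against 0, 0.465 and 0.906 TPM in the E16 libraries, from 42 reads over the E18 libraries and 29 over the E16 libraries. The days overlapped, and 3 reads, the limit that a count of 0 allows, would be 0.136 TPM in E16 replicate A. With no filter on low values, limma gave it a log2 difference of 0.37 with an SE of 0.37 (adjusted p = 0.639), and voom gave 1.87 with an SE of 1.37 (adjusted p = 0.473).

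Wif1 (ENSMUSG00000020218, chromosome 10, 121033960 to 121100650, plus strand) was at 0.373, 0 and 0.447 TPM in the E18 libraries and was listed at 0 in all 3 E16 libraries. Notum (ENSMUSG00000042988, chromosome 11, 120653788 to 120661175, minus strand) was at 0.565, 0.182 and 0 TPM in the E18 libraries and was likewise listed at 0 in all 3 E16 libraries. Only 10 reads for Wif1 and 8 for Notum stand behind these E18 values. The limit that a count of 0 allows was 0.181 to 0.191 TPM for Wif1 and 0.182 to 0.192 TPM for Notum in the E16 libraries for counting error only, below the values above 0 at E18 except that of Notum in replicate B (0.182 TPM). With no filter on low values, limma gave log2 differences of 0.33 for Wif1 and 0.30 for Notum, and called neither (SE 0.16 and 0.17, adjusted p = 0.381 and 0.469). Of the exon length of Notum, 38.1% lies under exons of Notumos and Myadml2os on the opposite strand, both listed at 0 in all 6 libraries.

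Ordered by mean level, the members at E18 were Sfrp1, Dkk3, Sfrp2, Dkk2, Frzb, Wif1 and Notum. Each of the first 3 had its lowest E18 library above the highest E18 library of the next, down to Dkk2. The E18 values of Dkk2 overlapped with those of Frzb, and those of Frzb, Wif1 and Notum overlapped too. At E16 the order was Sfrp1, Sfrp2, Dkk3, Frzb and Dkk2, with Wif1 and Notum at 0. The E16 values of Sfrp1, Sfrp2 and Dkk3 overlapped, as did those of Frzb and Dkk2.

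The share of the members' summed TPM that came from Sfrp1 was 64.5%, 72.8% and 63.4% in the E18 libraries, against 41.9%, 31.2% and 59.8% in the E16 libraries. Sfrp2 supplied 7.18%, 7.10% and 6.87% in the E18 libraries, against 27.5%, 38.6% and 19.2% in the E16 libraries. The groups did not overlap for either share, and the Sfrp2 share was nearly the same in all 3 E18 libraries. Dkk3 supplied 17.9% to 27.0% at E18 and 17.3% to 24.5% at E16, which overlapped.

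Differences in behaviour between members were tested on ratios within a library. The ratio of Sfrp1 to Sfrp2 was 8.98, 10.3 and 9.23 in the E18 libraries, against 1.52, 0.806 and 3.11 in the E16 libraries. The ratio of Dkk3 to Sfrp2 was 2.52 to 3.94 at E18 and 0.633 to 0.897 at E16. In 3 of 3 E18 libraries both ratios exceeded every E16 value, and the mean log2 ratios differed by 2.60 and 2.02. In a 2-sided exact permutation test each gave p = 0.1, the smallest that 3 libraries against 3 allow, and an adjusted p of 0.15 over 6 ratios. The ratio of Sfrp1 to Dkk3 was 2.34 to 4.07 at E18 and 1.27 to 3.47 at E16 (exact permutation p = 0.3, adjusted p = 0.3 over the 6 ratios).

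Mesenchymal markers were higher at E18 beside the called members. All 12 core markers were called as higher (median log2 fold change 2.64), as were 6 of 10 stellate and pericyte markers (2.49), 6 of 8 smooth muscle markers (2.63) and 6 of 8 portal fibroblast markers (2.48). No marker of these 4 lists was at 0 in every library. Over all genes tested 3.08% were called as higher. The lists share genes: Pdgfrb counts for core and stellate, Pdgfra for core and portal fibroblast, and Des for stellate and smooth muscle. The called smooth muscle marker Myocd was at 0.114 to 0.281 TPM at E16, so the filter left no way to call it lower. Of a mean core sum of 4101 TPM at E18, Col1a1, Col3a1 and Col1a2 supplied 1683, 725 and 539 TPM, so the sum mainly follows these collagens. Set against the summed TPM of the core markers, Sfrp1 stood at 1.86, 2.24 and 1.93 TPM per 100 TPM in the E18 libraries, against 0.967, 0.772 and 1.78 in the E16 libraries. Dkk3 stood at 0.691, 0.551 and 0.824 TPM per 100 TPM at E18, against 0.549, 0.606 and 0.512 at E16. Relative to the core markers the days did not overlap for Sfrp1, with E16 replicate C close to the E18 libraries, and they overlapped for Dkk3. Dkk2 stood at 0.0850, 0.0409 and 0.0380 at E18, against 0.154, 0.0626 and 0.00474 at E16, and overlapped too. Sfrp2 stood lower relative to the core in 3 of 3 E18 libraries, at 0.207, 0.219 and 0.209 TPM per 100 TPM, against 0.635, 0.957 and 0.571 in the E16 libraries. Log2 differences of these 3 ratios were 0.87 for Sfrp1, 0.29 for Dkk3 and −1.73 for Sfrp2 (2-sided exact permutation p = 0.1, 0.2 and 0.1, adjusted p = 0.15, 0.24 and 0.15 over the 6 ratios).

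**Figure D2:**
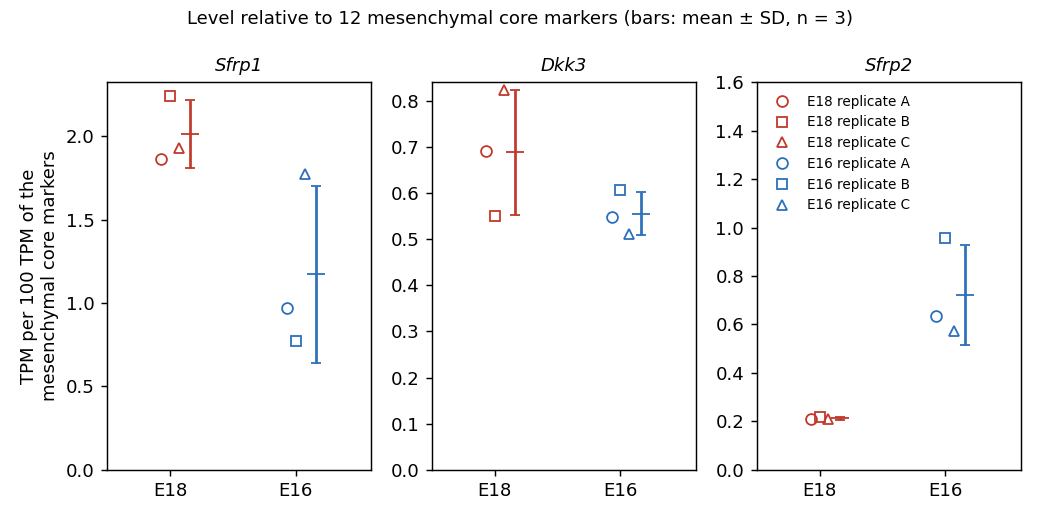
TPM of Sfrp1, Dkk3 and Sfrp2 per 100 TPM of 12 mesenchymal core markers in each library, E18 in red left of E16 in blue, with bars for mean ± SD (n = 3). Sfrp1 lies at 1.86 to 2.24 at E18 and 0.772 to 1.78 at E16, the Dkk3 values overlap, and Sfrp2 lies at 0.207 to 0.219 at E18 and 0.571 to 0.957 at E16.

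With the mean log2 level of the core markers as a covariate, limma called 0 genes over the whole table, with 646 at an unadjusted p under 0.05. In that fit the log2 fold change was −0.19 ± 0.76 for Sfrp1, −1.48 ± 0.70 for Sfrp2 and 0.97 ± 0.52 for Dkk3 (SE; limma adjusted p = 0.9998 for each), so the direction turned for Sfrp1 and Sfrp2. Since the core sums of the days did not overlap, the marker level and the day cannot be told apart. Hepatocyte markers moved the other way, with 4 of 10 called as lower at E18, a median of −2.33 on the log2 scale and no marker at 0 in every library. A hepatocyte score as covariate gave log2 fold changes of 2.58 ± 1.14 for Sfrp1, 2.73 ± 0.63 for Dkk3 and 1.31 ± 0.83 for Sfrp2 (SE; limma adjusted p = 0.498, 0.359 and 0.613), none of them called. Of the erythroid markers 1 of 10 was called as higher (median 1.31, none at 0 in every library), and their part in the result was not tested. Nor was that of the other lists, of which 4 of 8 mesothelial, 1 of 6 cholangiocyte and 1 of 6 leukocyte and macrophage markers were called, each as higher. Over all genes tested 3.08% were called as higher. The called cholangiocyte marker, Krt19, is also among the called mesothelial markers, and at 16.0 to 29.8 TPM it supplied most of the cholangiocyte sum at E18. In the cholangiocyte list Krt7, Sox9 and Spp1 were higher at E18 without overlap, and Epcam overlapped. Cdh1 went the other way without overlap, at 0.335 to 1.15 TPM at E18 and 3.23 to 12.9 TPM at E16. Summed TPM was 202 to 269 at E18 and 155 to 199 at E16 for mesothelial markers, 21.1 to 37.4 and 9.89 to 19.7 for cholangiocyte, 45.7 to 116 and 43.0 to 57.5 for leukocyte and macrophage, 18.0 to 25.1 and 27.5 to 41.0 for endothelial and 37.6 to 115 and 27.3 to 69.4 for megakaryocyte markers. In the mesothelial list (median log2 fold change 1.66) Podxl overlapped between the days, and the other 7 markers summed to 79.8 to 144 TPM at E18 and 22.9 to 24.6 TPM at E16, each without overlap. In the endothelial list Egfl7 supplied most of the sum, at 12.5 to 22.5 TPM at E18 and 26.2 to 39.2 TPM at E16. It was the only marker of that list to be tested. Lyve1 was higher at E18 without overlap, at 0.310 to 0.974 TPM against 0 to 0.265 TPM at E16. The remaining endothelial markers were low and overlapped between the days, so the sum mainly follows Egfl7. The macrophage markers Adgre1 and Clec4f were listed at 0 in all 6 libraries.

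The antagonists were set beside the Wnt ligands and the frizzled receptors. These are not the targets of every member, since Dkk2, for example, acts on the co-receptor Lrp6. The summed TPM of the 7 antagonists was 89.3, 205 and 78.3 in the E18 libraries, against 10.6, 14.5 and 26.1 in the E16 libraries. The 19 Wnt ligands together reached 21.9, 32.5 and 18.1 TPM at E18, against 10.8, 8.05 and 8.62 TPM at E16. Summed antagonist TPM was 4.07 to 6.30 times summed ligand TPM at E18 and 0.982 to 3.03 times at E16, without overlap. The 10 frizzled receptors summed to 79.1, 151 and 74.3 TPM in the E18 libraries, against 43.2, 43.7 and 57.3 TPM in the E16 libraries. Since Sfrp1 makes up most of the antagonist sum at E18, these sums largely restate its level.

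**Figure D3:**
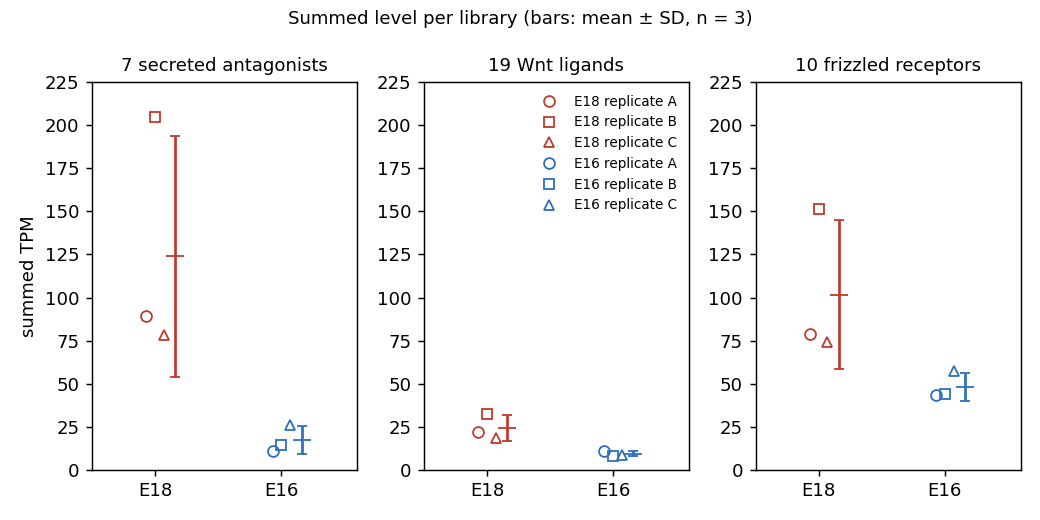
Summed TPM of the 7 secreted antagonists, 19 Wnt ligands and 10 frizzled receptors in each library, E18 in red left of E16 in blue, with bars for mean ± SD (n = 3). The antagonist sum is 78.3 to 205 TPM at E18 and 10.6 to 26.1 TPM at E16, a wider separation than the 18.1 to 32.5 TPM and 8.05 to 10.8 TPM of the ligands.

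Of 83 other Wnt pathway genes in 9 lists, 49 were tested, 7 were called and all 7 were higher at E18. Over all genes tested 3.47% were called, 549 as higher and 69 as lower. Of the 7, Wnt5a, Lgr6, Nkd2 and Tcf7l1 were under 1 TPM in every E16 library. These entered the test only through the E18 libraries, so the filter left no way to call them lower. Without E18 replicate A or B, or without any 1 of the 3 E16 libraries, 0 of the 49 were called by limma, with 2765 to 3438 genes of the whole table at an unadjusted p under 0.05, and without E18 replicate C 5 were. Voom on recovered reads called 16 of 54, all higher, and 7.32% of all its genes as higher. The median log2 fold change of the 49 was 0.74, against 0.07 over all genes tested. Of the 11 other secreted antagonists 4 were tested and 0 were called by limma, while 2 of them had an unadjusted p under 0.05 and were called by voom, Igfbp4 and Trabd2b. Igfbp4, a binding protein of insulin-like growth factors that can also block the co-receptor Lrp6, was at 58.5, 117 and 42.6 TPM in the E18 libraries, against 8.72, 22.1 and 17.3 TPM in the E16 libraries (limma adjusted p = 0.0517). Trabd2b, a membrane protease that cleaves Wnt ligands, averaged 4.63 ± 2.98 TPM at E18 and 0.804 ± 0.257 TPM at E16 (SD, n = 3 each; limma adjusted p = 0.0893). Dkkl1, a Dickkopf-like gene, averaged 4.19 ± 2.74 TPM at E18 and 5.47 ± 1.84 TPM at E16 (SD, n = 3 each; limma adjusted p = 0.684).

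Among ligands, Wnt5a, which acts largely without beta-catenin, was the called member of 4 tested genes. It was at 3.82, 4.61 and 3.68 TPM in the E18 libraries, against 0.281, 0.674 and 0.928 TPM in the E16 libraries (log2 difference 1.65, SE 0.31, adjusted p from limma = 0.0418). Wnt4, Wnt2b and Wnt5b did not pass, with log2 fold changes of 1.26, 0.74 and 0.74 (limma adjusted p = 0.131, 0.240 and 0.333). Of the R-spondins, which strengthen Wnt signals by sparing the receptors from breakdown, Rspo1 rose by 1.86 ± 0.36 (log2 ± SE; limma adjusted p = 0.0447), and Rspo3 stood 1.25 higher on the log2 scale without passing (adjusted p from limma = 0.131). Wls, the carrier that brings ligands to the cell surface, stood 1.25 higher on the log2 scale without passing (adjusted p from limma = 0.0671).

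Of 15 receptors tested, the frizzled genes Fzd1 and Fzd4 rose. Fzd1 averaged 42.1 ± 20.8 TPM at E18 and 6.82 ± 2.27 TPM at E16, and Fzd4 averaged 10.5 ± 4.42 TPM at E18 and 1.90 ± 0.582 TPM at E16 (SD, n = 3 each; limma adjusted p = 0.0328 and 0.0381). Ptk7, Ror1 and Ror2, receptors of the beta-catenin-independent branch, had log2 fold changes of 2.03, 2.13 and 1.86 and did not pass (limma adjusted p = 0.0507, 0.0586 and 0.0883). Lrp6, the co-receptor on which Dkk2 acts, was at 36.9 ± 2.27 TPM at E18 and 35.4 ± 1.03 TPM at E16 (SD, n = 3 each; limma adjusted p = 0.844), named here after its values were seen. Among membrane regulators, the R-spondin receptor Lgr6 rose by 2.07 ± 0.42 (log2 ± SE; limma adjusted p = 0.0482). Apcdd1, a membrane-bound Wnt inhibitor, had a log2 fold change of 1.48, and Lgr4 and Znrf3 of −0.53 and −0.56 (limma adjusted p = 0.0588, 0.181 and 0.273).

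In the receiving cell, Tcf7l1, a TCF factor that mostly represses, rose by 1.91 ± 0.38, and Nkd2, a feedback inhibitor that binds dishevelled, rose by 1.67 ± 0.30 (log2 ± SE; limma adjusted p = 0.0468 and 0.0390). Its relative Nkd1 was at 10.9, 23.2 and 6.55 TPM in the E18 libraries, against 0.353, 1.09 and 2.91 TPM in the E16 libraries (limma adjusted p = 0.0540). Axin2, a widely used readout of beta-catenin signalling, averaged 4.57 ± 2.07 TPM at E18 and 2.06 ± 0.654 TPM at E16 (SD, n = 3 each; limma adjusted p = 0.262). Tcf7l2, Tcf7, Dvl3 and Ccnd1 had log2 fold changes of 1.15, 0.90, 0.24 and 0.41 and did not pass (limma adjusted p = 0.179, 0.195, 0.451 and 0.638).

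**Figure D4:**
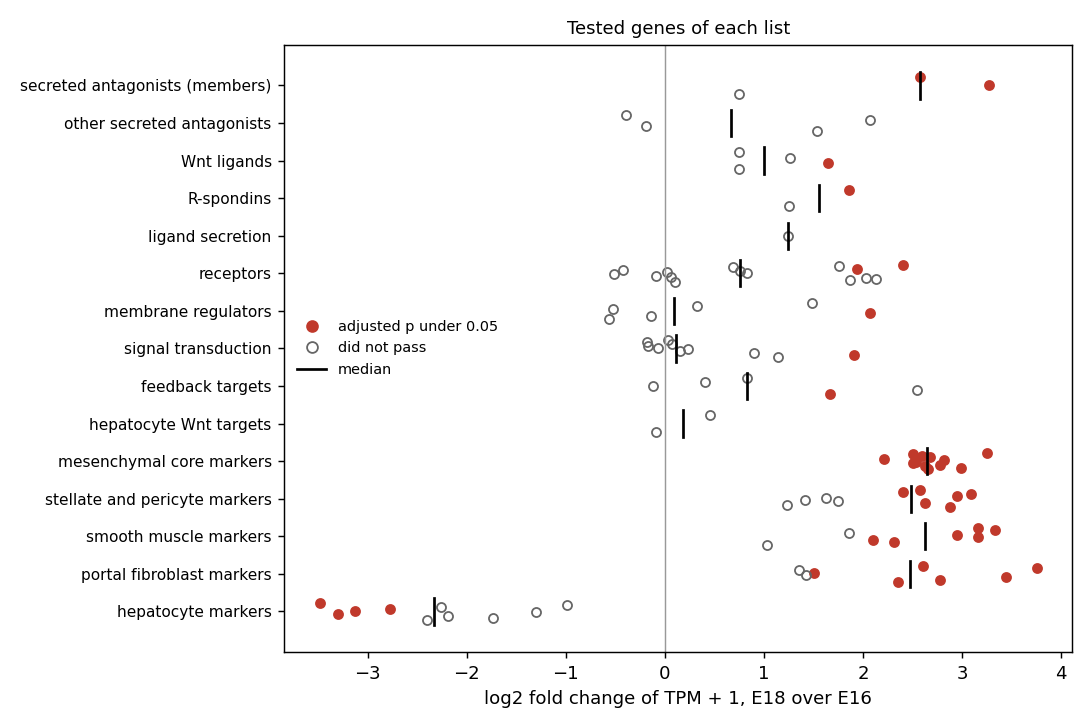
Log2 fold change (TPM + 1, E18 over E16) of every tested member, other Wnt pathway gene and mesenchymal or hepatocyte marker, 1 list to a row, where filled red points passed at adjusted p under 0.05 and black bars are medians. Dkk3 at 2.58 lies among the mesenchymal core markers (2.21 to 3.25), Sfrp1 at 3.27 lies just above them and Sfrp2 at 0.75 lies below them. The portal fibroblast markers Dpt (3.75) and Mfap4 (3.44) and the smooth muscle marker Actg2 (3.33) lie above Sfrp1, and all other markers shown lie below it.

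The genes whose pattern over the 6 libraries was most like each tested member were found by Pearson correlation of log2(TPM + 1) among 7813 or 7814 named protein-coding genes. All points share the same 2 days and 6 libraries, so high values are common and no test is attached. Nearest to Sfrp1 were the atypical cadherin Fat4 (r = 0.999), at 24.7, 50.5 and 21.5 TPM in the E18 libraries against 2.75, 2.53 and 7.48 TPM in the E16 libraries, and the P-cadherin gene Cdh3 (r = 0.998). Nearest to Dkk3 were elastin (Eln, r = 0.999) and Spaca6 (r = 0.999), a gene known from sperm. For Sfrp2 they were Vps37a (r = 0.995), a subunit of an endosomal sorting complex with 15.1 to 17.3 TPM at E18 and 13.7 to 14.9 TPM at E16, and the N-cadherin gene Cdh2 (r = 0.992). Between the members themselves, r was 0.975 for Sfrp1 and Dkk3, 0.802 for Sfrp1 and Sfrp2 and 0.784 for Dkk3 and Sfrp2 over the 6 libraries.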

How the data were processed

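The TPM values were made and deposited by the authors, with a column for each library. The submitters' processing notes name the build mm10 and, without role or order, HISAT2 2.1.0, HTSeq 0.5.4p3, Bowtie and FastQC 0.11.7. How TPM was calculated, which annotation was used and whether counting used strand is not given in the sources used here. A symbol table named 54409 of 54532 identifiers. Gene positions and exon lengths are those of GENCODE M21 (GRCm38, which is mm10). TPM times exon length fell on whole reads, within 0.05 of a read, for 96.8% to 97.1% of values above 0, which gave the read totals. A count of 0 allows 3 reads, for counting error only. Between replicates, chi-square over its degrees of freedom was 20.9 to 107, so none looked like a repeat deposit.

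The days were compared with limma 3.58.1 (R 4.3.3) on log2(TPM + 1), using an intensity trend and 2-sided p-values with Benjamini-Hochberg adjustment over 17824 genes. The log2(TPM + 1) scale understates changes of low genes. Every other pathway gene called, and up to 3 more per list by smallest p, were named, with the 2 genes most like each member (at least 10 TPM on 1 day). Alternatives were other pseudocounts, filters, scalings and weights, no trend, score covariates, the letter as a block and left-out libraries. Voom on recovered reads and leaving out both B libraries were added after seeing the data. The fits were tested on simulated data. The members and lists were chosen with earlier results of these data known. Figures were drawn with Matplotlib 3.10.9.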

Additional observations from a re-analysis of the deposited data

How the results depend on the processing

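The limma count over all genes, 618, was 347 with a pseudocount of 5, 406 with a filter of 5 TPM, 399 with quantile normalization, 1069 without Gm26917, mitochondrial and small RNA genes, 1451 with voom and 4316 with array weights. It was 0 with no filter, the replicate block, either score as covariate or both B libraries left out, where 646 to 4571 genes had an unadjusted p under 0.05, and 0 to 664 with 1 library left out. In those fits with 0 calls no antagonist was called; in the others before them Sfrp1 and Dkk3 were. With 1 library left out 0 to 2 antagonists were called. The 7 calls among other Wnt pathway genes became 2 with a pseudocount of 0.1, quantile normalization or a filter of 5 TPM, 3 with a pseudocount of 5, 12 without Gm26917, mitochondrial and small RNA genes, 16 with voom, 20 with array weights, 0 wherever the whole table had 0, and 0 to 5 with 1 library left out. Over all genes the median log2 difference was −0.08 after quantile normalization, against 0.07 without it, and quantile normalization gave 3.15 for Sfrp1, 2.38 for Dkk3 and 0.49 for Sfrp2. Array weights gave 2.30 for Sfrp1, 2.21 for Dkk3 and 0.46 for Sfrp2. The mesenchymal score turned Sfrp1 to −0.19 and Sfrp2 to −1.48; the cause was not tested. Over all 20 alternatives the log2 fold change was −0.19 to 3.80 for Sfrp1, 0.97 to 2.86 for Dkk3 and −1.48 to 1.31 for Sfrp2, negative under the mesenchymal score alone. The data did not show pairing by letter: deviations of same-letter libraries correlated at 0.102 (A), −0.139 (B) and −0.117 (C). The labels do not say whether a letter marks a shared litter or batch, and so few correlations cannot decide it. With the replicate block Sfrp1 and Dkk3 had limma adjusted p of 0.0993 and 0.0820. Under 1 TPM, values rest on few reads, which limits Frzb, Dkk2, Wif1 and Notum.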

Other observations

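Hepatocyte genes that respond to Wnt signals in the adult liver were measured in the same libraries. Glul, glutamine synthetase, was at 143, 130 and 165 TPM in the E18 libraries, against 73.2, 153 and 106 TPM in the E16 libraries, and the days overlapped (limma adjusted p = 0.395). Oat, ornithine aminotransferase, averaged 191 ± 26.2 TPM at E18 and 206 ± 53.6 TPM at E16 (SD, n = 3 each; limma adjusted p = 0.868). Cyp1a2 and Rhbg were listed at 0 in all 6 libraries. Wnt11, chosen after its values were seen, was at 1.48, 0.899 and 0.831 TPM in the E18 libraries and was listed at 0 in all 3 E16 libraries.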
